A study of Rattus norvegicus with 12 samples.

Results

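The interleukin 6 family and its STAT3 branch were followed through 12 brain RNA-seq libraries by 9 genes, taken by symbol from a table of raw counts with 31177 rows. They were the ligands Il6, Lif and Osm, the receptor chains Il6r, Il6st and Osmr, the kinase Jak2, the transcription factor Stat3 and the inhibitor Socs3. Each symbol matched 1 row, and all 9 were among the 18850 genes with enough counts to be tested. The libraries came from 3 groups of 4: an Alzheimer's disease model given a high-fat diet (AD-HFD), the same model without that diet (AD), and a control group called Sham. The question was how the model, and metabolic stress on top of it, alter gene expression in the brain. The genotype, strain, sex, age and brain region, the way the model was made and the length of the diet are given by no source used here, nor is whether each library came from its own animal. Mouse is the species in some label text, while the organism field and the Ensembl identifiers name rat, which was used. A group on the diet alone was not analysed here.

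Interleukin 6 family ligands bind a receptor chain of their own and bring in Il6st (gp130), the signalling chain that most of the family shares. JAK kinases bound to these receptors then phosphorylate STAT3, which enters the nucleus and switches on target genes. One of these targets is Socs3, whose protein binds the receptor and the kinase and shuts the signal down. In the brain this pathway is known for its activity in reactive astrocytes, microglia and blood vessels after injury and in inflammation.

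Total counts ran from 26668974 to 35351792 per library, and levels are given as CPM, the usual scaling of counts to library size, here with edgeR's TMM factors. Neuron markers were abundant throughout, with a summed level of 1506 to 6531 CPM in AD-HFD, 5064 to 5976 CPM in AD and 7435 to 9512 CPM in Sham. Some libraries stood apart from others of their group. Thalamus markers summed to 644 to 2148 CPM in 3 AD libraries but to 178 CPM in AD-3, against 130 to 266 CPM in AD-HFD and 72.2 to 150 CPM in Sham. Choroid plexus markers reached 10470 CPM in AD-HFD-1, 557 CPM in AD-HFD-2, 4655 CPM in Sham-2 and 4551 CPM in Sham-3, and stayed between 5.03 and 34.2 CPM elsewhere. Cortex markers summed to 722 to 2879 CPM in AD-HFD, 221 to 2141 CPM in AD and 3269 to 4489 CPM in Sham, and hypothalamus markers to 46.8 to 165 CPM in AD-HFD, 16.9 to 1883 CPM in AD and 2.69 to 6.23 CPM in Sham, so Sham stood apart from both other groups on both lists without overlap. AD-3 lay within the AD-HFD range for 8 of the 9 genes followed here, and the share of all genes for which this was so was not determined. Whether its label is right was not tested, so the AD values of these genes are given with and without it. Where such markers go with a group, the group and the tissue sampled cannot be told apart, and in bulk tissue fewer cells of a type and less RNA per cell cannot be told apart either.

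The ligand, receptor, kinase, factor and inhibitor genes were all higher in AD-HFD than in Sham. In edgeR's quasi-likelihood test, adjusted over all genes by the Benjamini-Hochberg method, 9 of 9 rose, beside 19.7% of all genes tested (12.9% fell and 32.7% passed in either direction). In 9 of 9 the lowest AD-HFD library stood above the highest Sham library, which was so for 18.9% of all genes. Il6, Lif, Osm and Socs3 passed the filter on low counts only through AD-HFD and AD libraries. Socs3, for one, had 8 to 12 counts per Sham library. A difference from Sham is thus built into the testing of these genes, and nothing is read from their place in the counts against Sham. Osmr, Il6st, Il6r, Jak2 and Stat3 passed the filter in Sham as well, and all of them rose in AD-HFD without overlap. In AD against Sham 4 of 9 rose (Lif, Osmr, Stat3 and Socs3), beside 3.07% of all genes (3.16% fell and 6.23% passed in either direction), and 5 of 9 had no overlap, beside 10.3%. In AD-HFD against AD none of the 9 passed, where 0.0106% of all genes rose, and none was free of overlap, beside 2.72% of all genes. DESeq2 called 6 of 9 in AD against Sham (13.8% of all genes), adding Il6 (adjusted p = 0.0176) and Osm (adjusted p = 0.0466), and limma voom called none (4.74%). In AD-HFD against Sham voom called 8 of 9 (31.1%), without Il6. In AD-HFD against AD 6 members and 5751 of all genes had an unadjusted p under 0.05, while DESeq2 called 2 of 9 members beside 17.6% of all genes, and voom none. The median log2 fold change of the 9 was 4.15 for AD-HFD over Sham, 2.61 for AD over Sham and 1.47 for AD-HFD over AD. The medians of all genes tested were 0.03, 0.06 and 0.04. The first 2 medians of the 9 are the values of Osm and the last is that of Lif, so nothing is read from them. Over Sham, Osmr, Il6st, Il6r, Stat3 and Jak2 ran from 1.10 (Jak2) to 4.98 (Osmr) in AD-HFD. In AD they ran from 0.28 (Il6r) to 3.13 (Osmr). Each pair of comparisons shares a group of libraries, so their values are given side by side and not as independent results.

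**Figure D1:**
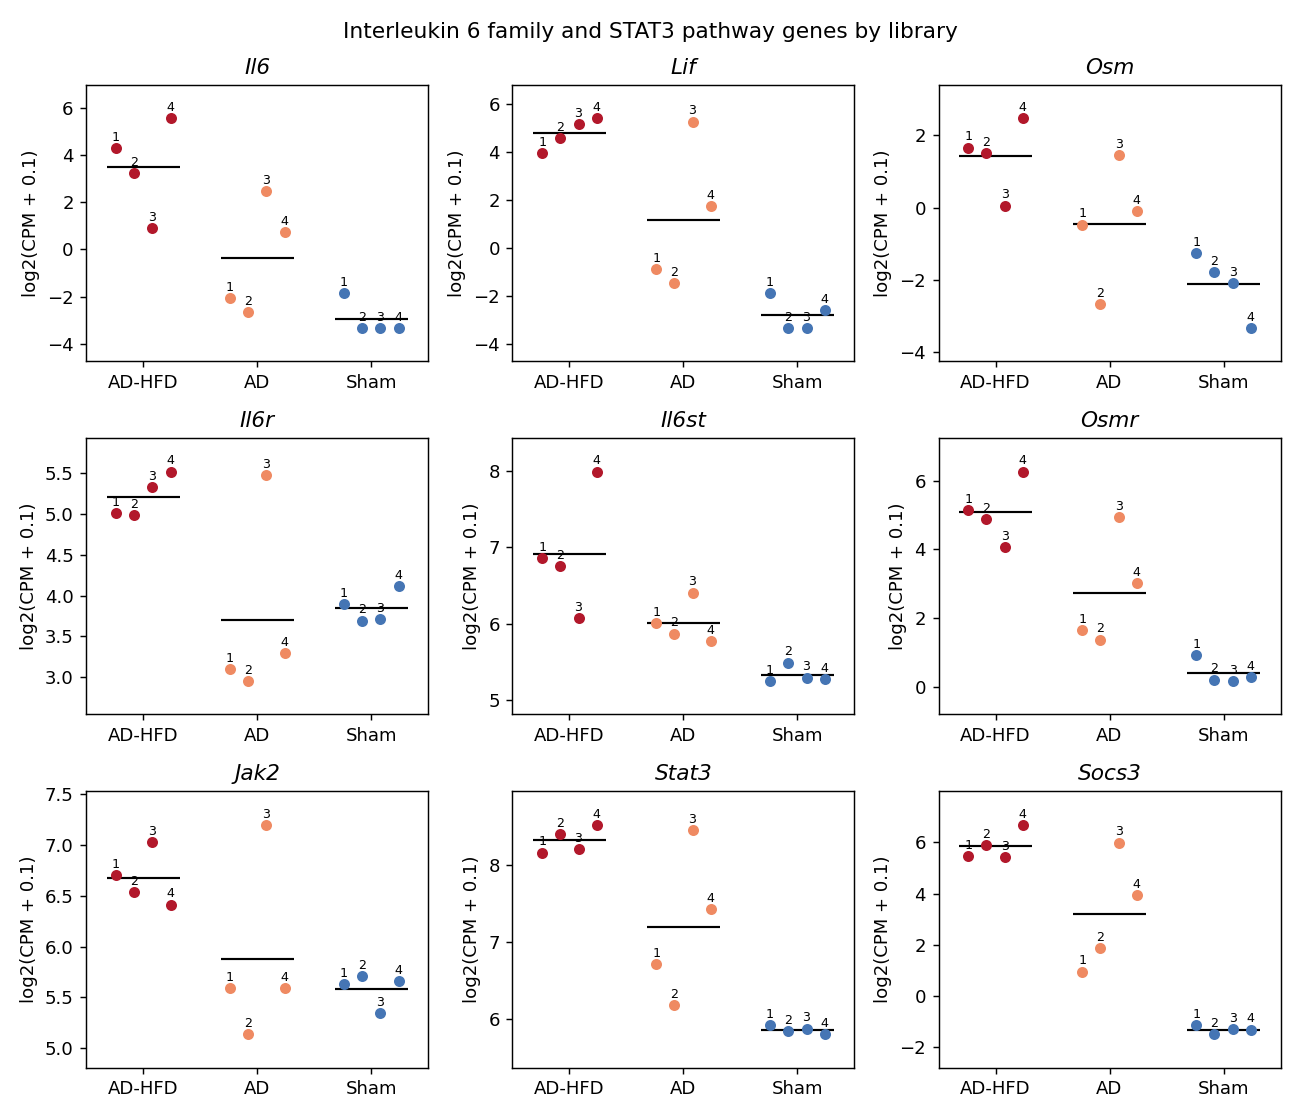
Levels of the 9 genes in each library, as log2(CPM + 0.1), with the library number above each point and the group mean as a line (n = 4 per group). All 4 AD-HFD libraries lie above all 4 Sham libraries in each panel, and AD-3 is the highest AD library in each panel.

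Il6, the ligand that names the family, was nearly absent from Sham brains and present in every AD-HFD library. It had 19.3, 9.24, 1.78 and 46.5 CPM in AD-HFD-1 to AD-HFD-4, 0.139, 0.0584, 5.48 and 1.56 CPM in AD-1 to AD-4, and 0.175, 0, 0 and 0 CPM in Sham-1 to Sham-4. The AD-HFD and Sham groups did not overlap, while AD-1 and AD-2 lay within the Sham range. In counts, the AD-HFD group had 2333 and the Sham group 6, all of them in Sham-1, a ratio of 392 (95% counting interval 180 to 1069). Without Sham-1 the Sham group had no Il6 counts. Set against 3 counts for the whole group, Il6 was then at least 569-fold higher in AD-HFD and at least 55.6-fold higher in AD. The ratio of AD to Sham was 38.3 (17.3 to 106) with all libraries and 11.2 (4.81 to 32.1) without AD-3. The log2 fold change was 8.53 ± 1.45 in AD-HFD against Sham (adjusted p = 0.00206), and limma voom ended this call (8.48, adjusted p = 0.0522). It was 5.14 ± 1.66 in AD against Sham, which did not pass (adjusted p = 0.0717). Without AD-HFD-3 or AD-HFD-4, which share in the estimate of the spread, the AD value was called (adjusted p = 0.037 and 0.0481), and without AD-3 it was 3.43 (adjusted p = 0.256).

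The Il6 promoter is shown because its letters carry the best known control elements of this cytokine gene, and because Il6 was among the members with the largest differences. It comes from RefSeq (build GRCr8), where 7 of the 9 members matched an entry by symbol, and runs from 250 bases before to 50 bases after the annotated start. Capitals mark, in order, a cyclic AMP response element (TGACGTCA), a C/EBP motif (ATTG and CAAT with 2 bases between) and an NF-kB motif (GGGA and TTTCC with 1 base between). All were searched on both strands, the matches do not overlap, and the motifs were picked with this promoter in view.
Il6 promoter, chr4:5894526-5894825, minus strand: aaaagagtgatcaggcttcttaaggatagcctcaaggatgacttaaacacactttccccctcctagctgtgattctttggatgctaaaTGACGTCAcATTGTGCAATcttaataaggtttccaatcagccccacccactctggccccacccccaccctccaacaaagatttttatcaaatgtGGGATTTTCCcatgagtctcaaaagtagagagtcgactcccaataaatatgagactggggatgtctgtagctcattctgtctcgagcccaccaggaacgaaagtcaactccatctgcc
Of 33469 promoter windows of the same length, 1.83% held the first motif, 0.436% the second and 0.362% the third. The STAT motif TTCNNNGAA was held by 8.87% of the windows and by none of the 7 member windows. Annotated starts were not checked as the sites where transcription begins. Windows of 300 bases also leave out elements further away, so nothing is read from this absence. The matches marked above describe letters in a window and were not measured as binding.

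Lif, a cytokine of the family that acts on neurons and astrocytes, followed the same order with less spread inside AD-HFD. It had 15.5, 24.2, 36.3 and 42.5 CPM in AD-HFD-1 to AD-HFD-4, 0.45, 0.263, 38.7 and 3.27 CPM in AD-1 to AD-4, and 0.175, 0, 0 and 0.067 CPM in Sham-1 to Sham-4. The 4 AD libraries were all above the Sham libraries, and AD-3 lay inside the AD-HFD range, at 29.2 times the mean of the other AD libraries. Lif rose by 8.77 ± 1.53 in AD-HFD against Sham (adjusted p = 0.00241) and by 7.30 ± 1.55 in AD against Sham (adjusted p = 0.0133). The group counts were 3670, 1369 and 8 in AD-HFD, AD and Sham. Leaving out any 1 of the Sham libraries ended the AD call (adjusted p 0.0605 to 0.0836), and without AD-3 the ratio of counts of AD to Sham was 19.3 (95% counting interval 9.45 to 45.7), against 173 (87.7 to 402) with it. The fitted value without AD-3 was 4.24 and passed (adjusted p = 0.0185).

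Osm, oncostatin M, a ligand made mainly by myeloid cells, had the fewest counts of the 3 ligands in AD-HFD. It had 3.06, 2.74, 0.938 and 5.42 CPM in AD-HFD-1 to AD-HFD-4, 0.624, 0.0584, 2.65 and 0.834 CPM in AD-1 to AD-4, and 0.321, 0.192, 0.136 and 0 CPM in Sham-1 to Sham-4. AD-HFD and Sham did not overlap, and AD-2 lay within the Sham range. Osm rose by 4.15 ± 0.903 in AD-HFD against Sham (adjusted p = 0.00651), while its value in AD against Sham was 2.61 ± 0.996 (adjusted p = 0.131). The ratio of counts of AD to Sham was 6.22 (3.90 to 10.4) and, without AD-3, 2.82 (1.64 to 4.997), with a fitted value of 1.51 (adjusted p = 0.371). The filter left Il6, Lif and Osm out when AD and Sham were fitted alone.

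Among the receptor chains, Osmr had the largest fold change in both comparisons with Sham. Osmr, the oncostatin M receptor that pairs with Il6st, had 35.3, 29.4, 16.6 and 76.7 CPM in AD-HFD-1 to AD-HFD-4, 3.05, 2.48, 30.3 and 7.95 CPM in AD-1 to AD-4, and 1.78, 1.05, 1.02 and 1.11 CPM in Sham-1 to Sham-4. All AD-HFD and all AD libraries stood above all Sham libraries. The log2 fold change was 4.98 ± 0.84 in AD-HFD against Sham (adjusted p = 0.00322) and 3.13 ± 0.802 in AD against Sham (adjusted p = 0.0411). Without AD-3 the AD value was 1.83 and was not called (adjusted p = 0.0632). The call also ended on leaving out AD-4, either of AD-HFD-1 and AD-HFD-2, or any Sham library (adjusted p 0.0548 to 0.116), with the value between 3.002 and 3.38.

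Il6st, the shared signalling chain, differed less. Its levels were 116, 107, 67.1 and 254 CPM in AD-HFD-1 to AD-HFD-4, 64.2, 58.4, 84.7 and 54.4 CPM in AD-1 to AD-4, and 38.0, 44.9, 39.2 and 38.7 CPM in Sham-1 to Sham-4. Neither AD-HFD nor AD overlapped Sham, and AD-HFD-4 was the highest library. Il6st rose by 1.76 ± 0.329 in AD-HFD against Sham (adjusted p = 0.00421). In AD against Sham the value was 0.70 ± 0.322 (adjusted p = 0.208) and 0.55 without AD-3, and it was called only without AD-HFD-4 among the 12 fits that left out 1 library (adjusted p = 0.0442).

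Il6r, the chain that binds interleukin 6 itself, behaved differently in 3 of the AD libraries. It had 32.1, 31.6, 40.2 and 45.7 CPM in AD-HFD-1 to AD-HFD-4, 8.45, 7.64, 44.4 and 9.72 CPM in AD-1 to AD-4, and 14.8, 12.8, 13.0 and 17.2 CPM in Sham-1 to Sham-4. AD-1, AD-2 and AD-4 lay below all 4 Sham libraries, and AD-3 lay above them. In AD against Sham the log2 fold change was 0.28 ± 0.484 with all libraries (adjusted p = 0.762). Without AD-3 it was -0.75 and passed (adjusted p = 0.024); in that fit 6.36% of all genes fell and 5.72% rose. Il6r rose by 1.37 ± 0.489 in AD-HFD against Sham, close to the threshold (adjusted p = 0.0492), and the call was lost without any 1 AD-HFD or Sham library or AD-4 (adjusted p 0.0516 to 0.111, log2 at least 1.25 in the 12 fits).

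Jak2, a kinase bound to these receptors, had 104, 92.8, 131 and 85.1 CPM in AD-HFD-1 to AD-HFD-4, 48.2, 35.1, 147 and 48.1 CPM in AD-1 to AD-4, and 49.5, 52.3, 40.6 and 50.4 CPM in Sham-1 to Sham-4. AD-HFD stood above Sham without overlap, and of the 9 genes only Jak2 had AD-3 as its highest library. It rose by 1.10 ± 0.372 in AD-HFD against Sham (adjusted p = 0.0409), a call lost without any 1 AD-HFD or Sham library (adjusted p 0.0593 to 0.0977). In AD against Sham it was 0.53 ± 0.369 (adjusted p = 0.414), and -0.14 without AD-3 (adjusted p = 0.66).

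Stat3, the factor at the centre of the pathway, had the narrowest spread within AD-HFD and within Sham. It had 285, 337, 293 and 366 CPM in AD-HFD-1 to AD-HFD-4, 105, 72.2, 348 and 171 CPM in AD-1 to AD-4, and 60.4, 57.2, 58.4 and 55.6 CPM in Sham-1 to Sham-4. The coefficient of variation was 11.9% in AD-HFD, 70.7% in AD and 3.49% in Sham. All AD-HFD and all AD libraries stood above Sham. Stat3 rose by 2.47 ± 0.386 in AD-HFD against Sham (adjusted p = 0.00262) and by 1.59 ± 0.375 in AD against Sham (adjusted p = 0.0307). The AD call was lost without AD-4 or any 1 Sham library (adjusted p 0.0686 to 0.0912), and without AD-3 it held at a log2 fold change of 1.00.

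Socs3, the feedback inhibitor that STAT3 induces, had the smallest adjusted p of the 9 in AD against Sham. Its Sham counts, 8 to 12 per library, would not have passed the filter without the other groups, so nothing is read from that rank. It had 44.4, 59.0, 42.7 and 103 CPM in AD-HFD-1 to AD-HFD-4, 1.84, 3.53, 63.7 and 15.2 CPM in AD-1 to AD-4, and 0.351, 0.256, 0.306 and 0.301 CPM in Sham-1 to Sham-4. The lowest AD library was above the highest Sham library, and the AD libraries differed among themselves far more than the Sham libraries did. Socs3 rose by 7.66 ± 1.15 in AD-HFD against Sham (adjusted p = 0.0023) and by 6.10 ± 1.11 in AD against Sham (adjusted p = 0.0111). Both calls held in all 12 fits that left out 1 library, with log2 fold changes of 7.30 to 7.80 in AD-HFD and 4.46 to 6.48 in AD, the lowest AD value being that without AD-3. Limma voom ended the AD call of Socs3 (4.82, adjusted p = 0.158), as it did those of Lif, Osmr and Stat3. Means were 62.3 ± 28.2 CPM in AD-HFD, 21.1 ± 29.0 CPM in AD and 0.303 ± 0.0388 CPM in Sham (SD, n = 4 each).

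**Figure D2:**
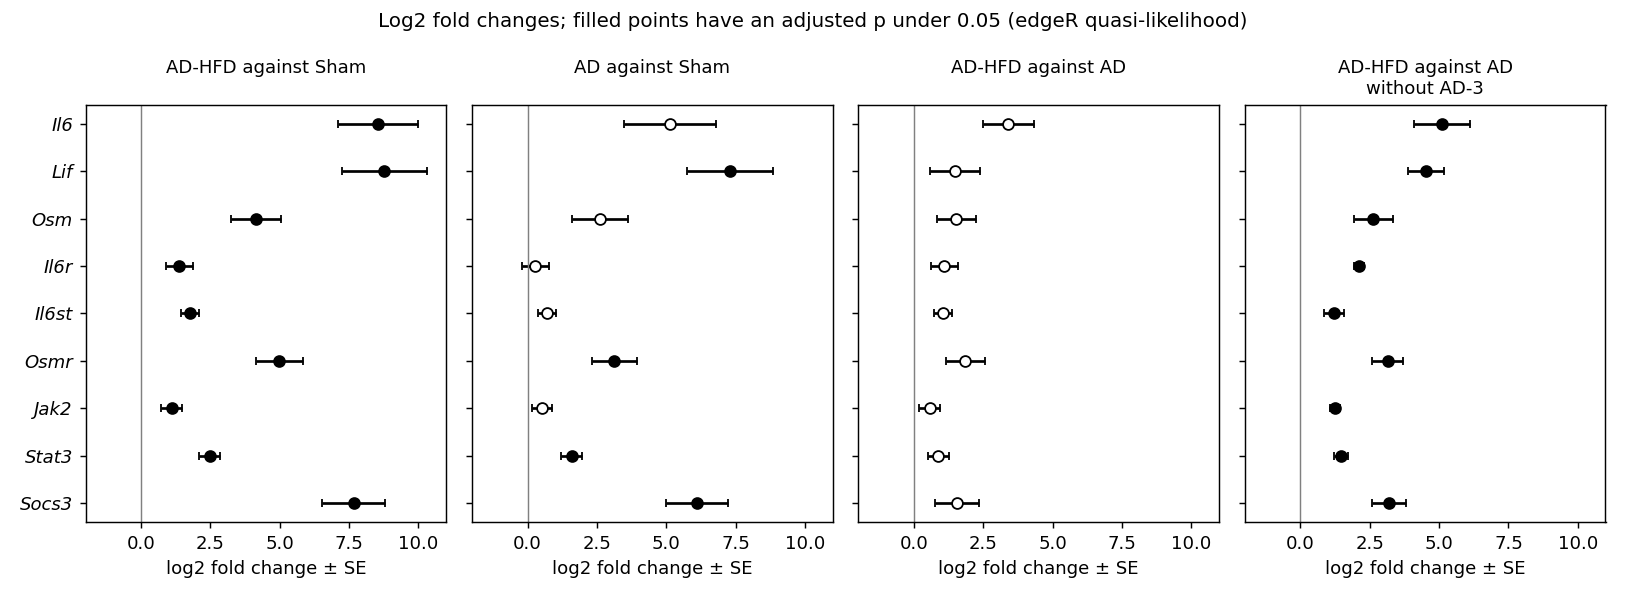
Log2 fold changes ± SE of the 9 genes in the 3 comparisons, and in AD-HFD against AD without AD-3. Filled points have an adjusted p under 0.05: 9 in AD-HFD against Sham, 4 in AD against Sham, none in AD-HFD against AD with all libraries and 9 without AD-3.

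The comparison of AD-HFD with AD, which holds the diet within the model, turned on the library AD-3. AD-3 was the highest AD library for 9 of the 9 genes and lay within the AD-HFD range for 8, the exception being Jak2, where it was higher still. The other AD libraries lay below all AD-HFD libraries for 9 of the 9. The shares of all genes for which these orders held were not determined, so nothing particular to the members is read from these counts. With all libraries the log2 fold changes ran from 0.57 for Jak2 to 3.40 for Il6, with adjusted p from 0.0605 to 0.312. Without AD-3 all 9 were called higher in AD-HFD, where 18% of all genes tested were called higher and 30.3% in either direction. The log2 fold changes were then 5.10 for Il6, 4.52 for Lif, 2.64 for Osm, 3.15 for Osmr, 1.2 for Il6st, 2.12 for Il6r, 1.24 for Jak2, 1.47 for Stat3 and 3.19 for Socs3, with adjusted p from 0.000242 to 0.0261. Without AD-HFD-3, Il6, Osm, Osmr and Il6st were called (adjusted p 0.00654 to 0.0489), 4 of 9 beside 27.6% of all genes, and in the other 10 fits none was. With both AD-3 and AD-HFD-3 left out 9 of 9 were called, beside 45.1% of all genes. AD-3 also differed from the other AD libraries in markers that are no part of the pathway, with a cortex marker sum of 2141 CPM against 221 to 333 CPM, and the part of this in the result was not tested.

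Within AD-HFD the 9 genes did not share 1 order. The ratio of AD-HFD-4 to AD-HFD-3 was 26.1 for Il6, 5.78 for Osm, 4.61 for Osmr, 3.78 for Il6st and 2.41 for Socs3. For Stat3 it was 1.25, for Lif 1.17, for Il6r 1.14 and for Jak2 0.652. AD-HFD-4 was the highest library of all for 8 of the 9 genes. For Il6, Osm, Osmr and Il6st the highest of the 4 libraries was at least 3.78 times the lowest. For Lif it was 2.75 times and for Socs3 2.41 times the lowest, and for Stat3, Il6r and Jak2 at most 1.53 times. Ligands and receptor chains were thus among both the widely and the less widely spread genes.

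Levels of markers of other cell types also differed between these groups. Of all genes tested, 19.7% rose and 12.9% fell in AD-HFD against Sham. In AD against Sham 3.07% rose and 3.16% fell. Microglia markers summed to 477 to 832 CPM in AD-HFD, 349 to 554 CPM in AD and 271 to 305 CPM in Sham, and 7 of 11 rose and 1 fell in AD-HFD against Sham. Leukocyte and border macrophage markers summed to 29.0 to 264 CPM in AD-HFD, 29.9 to 49.6 CPM in AD and 4.08 to 8.21 CPM in Sham, with 6 of 7 tested markers higher in AD-HFD and 4 of 7 in AD. Of these, S100a8, S100a9, Cd163 and Cd8a would not have passed the filter on their Sham counts. A difference from Sham is thus built into their being tested, and nothing is read from their place in these counts. Endothelial markers summed to 279 to 2823 CPM in AD-HFD, 260 to 360 CPM in AD and 181 to 250 CPM in Sham. Of those tested, 6 of 7 were higher in AD-HFD and none in AD. Cldn5 of this list had counts in only 1 AD-HFD library (287) and 1 AD library (150), and in no Sham library. Red blood cell markers reached 4222 CPM in AD-HFD-4 and were 254 to 1142 CPM in the other AD-HFD libraries, 273 to 613 CPM in AD and 160 to 364 CPM in Sham, with 5 of 5 higher in AD-HFD. Alas2 of this list would not have passed the filter on its Sham counts either.

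Astrocyte markers did not follow: they summed to 2761 to 3544 CPM in AD-HFD, 2693 to 6330 CPM in AD and 3548 to 3923 CPM in Sham, and none of 8 rose in AD-HFD, while 1 fell. General neuron markers fell in AD-HFD for 4 of 7. Cortex markers fell for 2 of 9 in AD-HFD and 3 of 9 in AD. Of all genes, 12.9% fell in AD-HFD and 3.16% in AD. In AD-HFD hypothalamus markers rose for 2 of 9 and thalamus markers for 1 of 8. These counts are near or below the 19.7% of all genes that rose there, so nothing is read from them. In AD 4 of 9 hypothalamus and 7 of 8 thalamus markers rose, beside 3.07% of all genes. Oxt and Sim1 of the hypothalamus list had no counts in Sham and were tested only through the other groups. Avp, Hcrt, Pmch, Trh and Gal of that list would not have passed the filter on their Sham counts either. Nor would Gbx2 and Shox2 of the thalamus list. A difference from Sham is thus built into the testing of these genes, and nothing is read from their place in these counts. Leptomeninges markers summed to 133 to 735 CPM in AD-HFD, 42.9 to 116 CPM in AD and 65.2 to 506 CPM in Sham, and 5 of 7 rose in AD-HFD and none in AD. AD-HFD-3, the library with the lowest microglia, leukocyte, endothelial and red blood cell sums of its group and a red blood cell sum within the Sham range, was also the lowest of its group for Il6, Osm, Osmr, Il6st and Socs3, at 1.78, 0.938, 16.6, 67.1 and 42.7 CPM. It was not the lowest for Lif, Il6r, Stat3 and Jak2, at 36.3, 40.2, 293 and 131 CPM. Its microglia and leukocyte sums, 477 and 29.0 CPM, were above those of all Sham libraries. AD-HFD-3 also had the lowest oligodendrocyte sum of its group, 6404 CPM against 28450 to 46630 CPM, and the lowest leptomeninges sum, 133 CPM. Its neuron and cortex sums, 6531 and 2879 CPM, were the highest of the group. The part of these markers in the group differences was not tested.

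**Figure D3:**
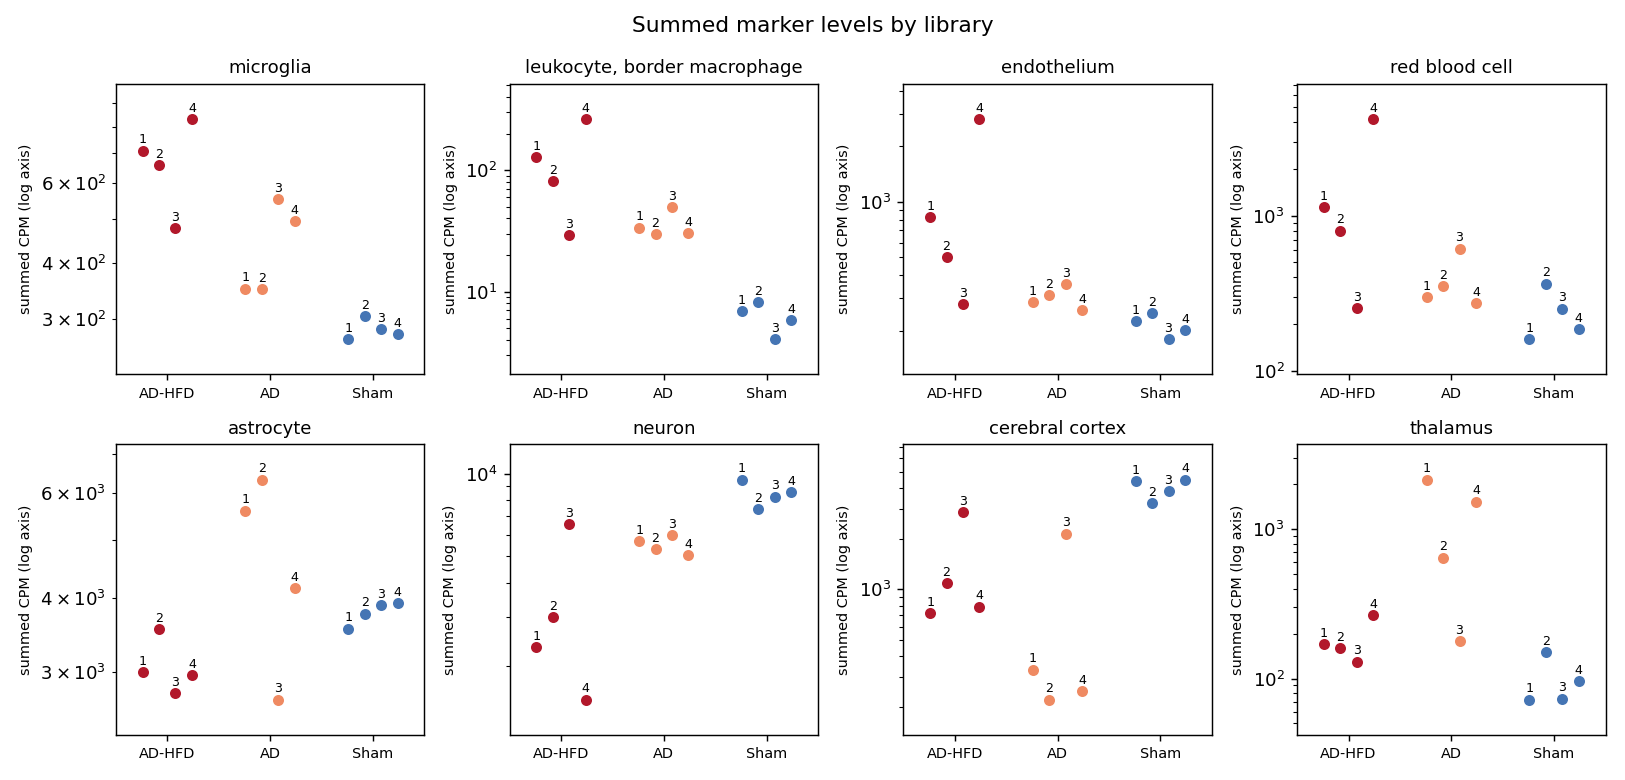
Summed CPM of 8 lists of cell type or region markers in each library, on log axes, with the library number above each point. AD-HFD-4 is highest for the endothelial and red blood cell lists, at 2823 and 4222 CPM, and AD-1, AD-2 and AD-4 are highest for the thalamus list, at 644 to 2148 CPM.

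Of 59 further genes of the pathway, 50 could be tested. Among those called below, Il11, Clcf1, Lcn2 and Fgg would not have passed the filter on their Sham counts. A difference from Sham is thus built into their being tested, and nothing is read from their place in the counts against Sham. In AD-HFD against Sham 31 rose and none fell (median log2 fold change 1.31), beside 19.7% of all genes that rose. In AD against Sham 9 rose and none fell (median 0.62), beside 3.07% that rose. In AD-HFD against AD none passed by edgeR (median 0.78), where 26 had an unadjusted p under 0.05 and DESeq2 called 18, beside 17.6% of all genes. By edgeR 27 were called without AD-3, of which 26 were higher (30.3% of all genes were called), and 20 without AD-HFD-3, of which 19 were higher (27.6% of all genes). The AD count of 9 was 3 without Sham-2, 2 without any other Sham library, 5 without AD-4 or AD-HFD-2 and 14 without AD-HFD-3.

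Ligands other than the 3 named above included Il11, whose Sham counts were 0 to 11 per library. Il11, a fibrosis-linked cytokine that also signals through Il6st, had 28.0, 36.4, 36.8 and 188 CPM in AD-HFD-1 to AD-HFD-4, 0.935, 0.70, 48.6 and 4.43 CPM in AD-1 to AD-4, and 0, 0.351, 0.17 and 0.067 CPM in Sham-1 to Sham-4. It rose by 8.93 ± 1.62 in AD-HFD (adjusted p = 0.00336) and by 6.53 ± 1.58 in AD (adjusted p = 0.0297) against Sham, and its AD-3 value again lay inside the AD-HFD range. Clcf1, a ligand of the Cntf receptor, rose in AD-HFD (log2 fold change 4.64, adjusted p = 0.0341), and so did Cntf, ciliary neurotrophic factor, by 1.06 ± 0.368 (adjusted p = 0.045). Ctf1, cardiotrophin 1, did not pass against Sham: it had 3.94, 3.95, 1.13 and 4.19 CPM in AD-HFD-1 to AD-HFD-4, 0.954 to 2.10 CPM in AD and 1.17 to 3.13 CPM in Sham, with AD-HFD-3 apart from the rest of its group. Its log2 fold change was 0.62 ± 0.428 in AD-HFD (adjusted p = 0.279) and -0.35 ± 0.448 in AD (adjusted p = 0.673). Of 5 ligand genes tested, 3 rose in AD-HFD and 1 in AD, beside 19.7% and 3.07% of all genes. These counts take in Il11 and, in AD-HFD, Clcf1, whose Sham counts alone would not have passed the filter.

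Of the other receptor chains tested, 1 of 4 rose in AD-HFD, near the 19.7% of all genes, and none passed in AD. Lifr, which pairs with Il6st to bind Lif, rose in AD-HFD by 0.81 ± 0.206 (adjusted p = 0.0136) and was 0.70 ± 0.206 in AD (adjusted p = 0.0649). Cntfr was -0.59 ± 0.237 in AD-HFD against Sham (adjusted p = 0.0723), Il11ra1 was 0.23 ± 0.306 and Il27ra 0.24 ± 0.864.

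Of 8 other JAK and STAT genes, 4 rose in AD-HFD and 1 in AD, beside 19.7% and 3.07% of all genes. Jak3, a kinase used mainly in blood cells, rose in both, by 2.47 ± 0.289 (adjusted p = 0.0013) and 1.46 ± 0.284 (adjusted p = 0.0147). It had 15.7 to 34.9 CPM in AD-HFD, 9.35 to 12.8 CPM in AD and 2.60 to 4.39 CPM in Sham, so that here AD-3 lay below every AD-HFD library. Stat5a (1.33 ± 0.357), Stat4 (1.11 ± 0.20) and Stat2 (0.68 ± 0.161) rose in AD-HFD. Jak1, Tyk2, Stat5b and Stat6 did not pass.

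Among 16 inhibitors, phosphatases and the receptor-shedding protease, 7 rose in AD-HFD and none in AD, where 5 had an unadjusted p under 0.05. Of all genes, 19.7% rose in AD-HFD and 3.07% in AD. Ptpn6 (SHP-1), a phosphatase of blood cells and microglia, rose by 2.57 ± 0.375, and Socs1, a relative of Socs3 best known for restraining interferon signals, by 2.55 ± 0.497. The others were Ptpn2 (1.96 ± 0.382), Adam17 (1.55 ± 0.322), which releases soluble interleukin 6 receptor, Socs4 (1.44 ± 0.337), Ptpn1 (0.92 ± 0.279) and Socs6 (0.80 ± 0.242). Socs2 and Cish, feedback genes tied to STAT5, stood at 0.04 ± 0.27 and 0.49 ± 0.329 and did not pass, nor did any of 4 Pias genes.

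**Figure D4:**
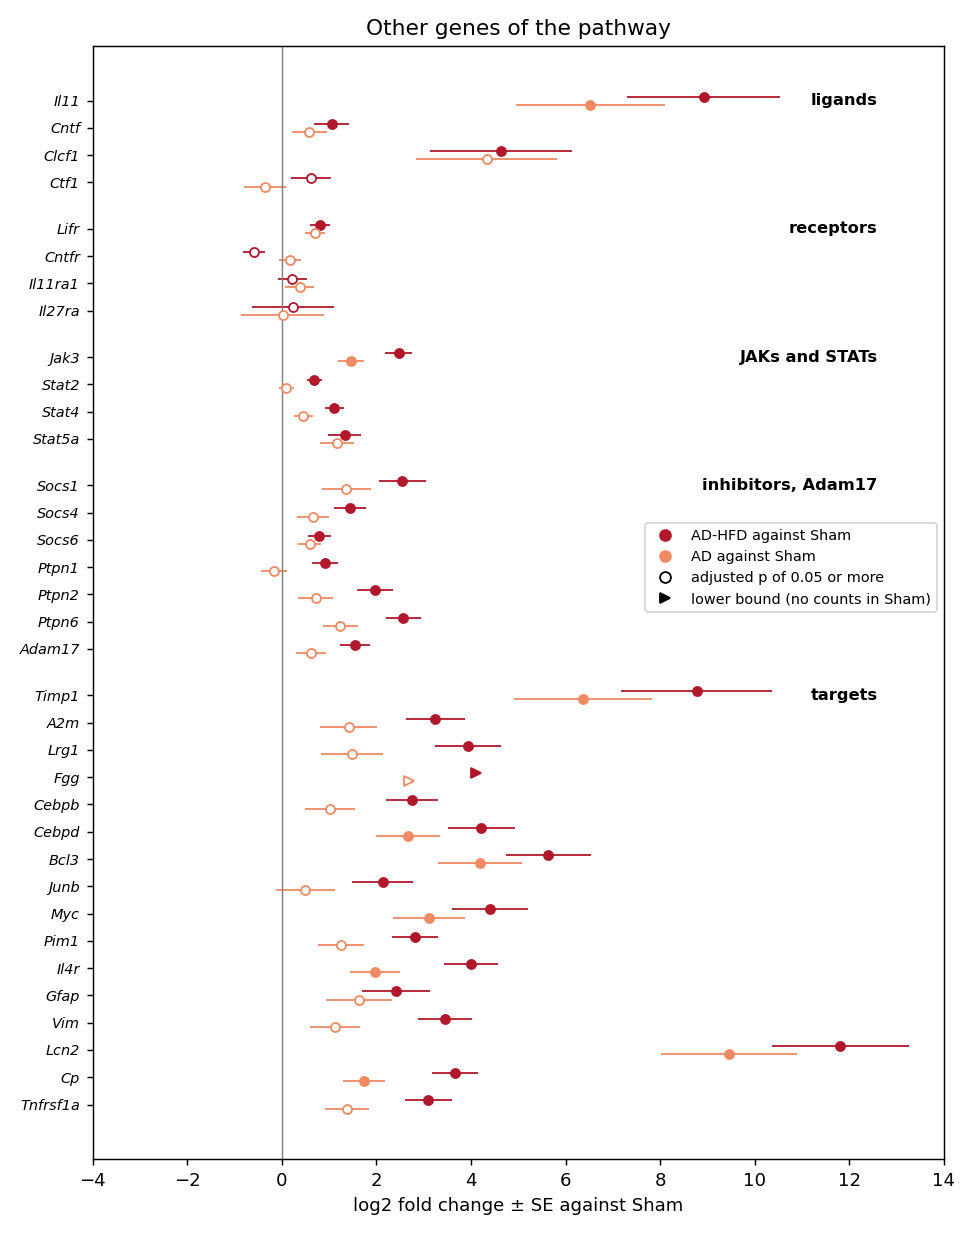
Log2 fold changes ± SE against Sham of the named genes outside the 9, in AD-HFD and in AD, grouped by role. Filled symbols passed the test; Fgg, with no counts in Sham, is drawn as a lower bound without an error bar.

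Of 17 genes tested that are known as STAT3 or acute-phase targets, 16 rose in AD-HFD against Sham (median 3.66), beside 19.7% of all genes. In AD 7 of the targets rose (median 1.63), beside 3.07%. Many of them are also induced by other signals. The counts take in Lcn2 and, in AD-HFD, Fgg, whose Sham counts alone would not have passed the filter. The largest rise was that of Lcn2, a secreted iron-carrier-binding protein. It had 5 counts over the Sham group, so nothing is read from that rank. Lcn2 had 165, 188, 21.9 and 258 CPM in AD-HFD-1 to AD-HFD-4. In AD-1 to AD-4 it had 4.57, 2.83, 87.0 and 29.2 CPM, and in Sham no more than 0.10 CPM. Its log2 fold change was 11.81 ± 1.45 in AD-HFD (adjusted p = 0.000494). Timp1, an inhibitor of matrix metalloproteinases, rose by 8.77 ± 1.59 in AD-HFD and 6.37 ± 1.46 in AD, with 259 to 1354 CPM in AD-HFD, 3.41 to 418 CPM in AD and 0.847 to 1.84 CPM in Sham. Bcl3 (5.64 ± 0.906), Myc (4.39 ± 0.804), Cebpd (4.22 ± 0.716), Il4r (4.0 ± 0.574) and Cp (3.66 ± 0.481) rose in AD-HFD and also passed in AD, by 4.19, 3.11, 2.67, 1.97 and 1.74.

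Passing in AD-HFD alone were Lrg1 (3.94 ± 0.698), the intermediate filament Vim (3.46 ± 0.571), A2m (3.24 ± 0.626), Tnfrsf1a (3.10 ± 0.498), Pim1 (2.81 ± 0.489), Cebpb (2.75 ± 0.547), Gfap (2.41 ± 0.717) and Junb (2.13 ± 0.646). Fgg, a fibrinogen chain of the acute phase, had 51 counts in AD-HFD and none in Sham and was at least 17.1-fold higher. Gfap, the filament of reactive astrocytes, did not follow the order of Socs3 within AD-HFD: it had 252 CPM in AD-HFD-4, below 3 of the AD-HFD libraries at 1874 to 3893 CPM and within the Sham range of 212 to 478 CPM. Bcl6 did not pass in AD-HFD (0.67 ± 0.325, adjusted p = 0.126).

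The genes whose pattern across the 12 libraries came closest to that of a member were found by the root mean square difference of centred log2 CPM among 13147 genes. For Socs3 they were Csf2rb (0.488), Maff (0.519), Hmox1 (0.719), Ccl3 (0.725) and Tnfrsf12a (0.738), beside an SD of Socs3 of 3.38 on this scale. For Osmr (SD 2.25) they were Tgm2 (0.339), PVR (0.389), A3galt2 (0.416), Angpt2 (0.417) and Procr (0.428). For Stat3 (SD 1.17) they were Kdm6b (0.255), Gpr84 (0.264), Tnip2 (0.282), C1qc (0.296) and Myd88 (0.306). For Il6st (SD 0.811) they were Lima1 (0.119), Sod2 (0.158), Tln1 (0.163), Cd2ap (0.167) and Nfkb1 (0.173). Among the 9 members the closest pair was Il6r and Jak2 (0.403) and the most distant Lif and Jak2 (3.12). The levels were centred but not scaled, so this difference takes in the size of changes as well as their order. A large value does not mean opposite orders.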

How the data were processed

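Total RNA of 12 brain samples was sequenced after mRNA library preparation, per the labels' protocols. Raw counts per gene were deposited by the authors in 1 table. FastQC and Trimmomatic are named in the submitters' processing notes; no source used here gives the aligner, counting program, strand setting, build or annotation. Groups and replicate numbers came from library names. The counts were fitted with edgeR 4.0.16 in R 4.3.3 (filterByExpr, TMM, non-legacy quasi-likelihood fit with 1 mean per group over all 12 libraries, Benjamini-Hochberg adjustment over 18850 genes, threshold 0.05). The SE is the log2 fold change divided by the square root of F, and log2 CPM used a prior count of 2. Where nothing says that samples are separate animals, p-values measure only the spread between these samples. Counting intervals and floors cover counting error only.

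The members and gene lists were chosen with earlier results of these data known. Every member was named; of the other pathway lists, every called gene, and where fewer than 4 were called those with the smallest p up to 4; for likeness to Socs3, Osmr, Stat3 and Il6st, the 5 closest genes with a mean of at least 1 CPM. Jak1, Tyk2, Stat5b, Stat6, Socs2, Cish, the Pias genes and Bcl6 were named after their values were seen. Of the listed genes, 7 were not analysed here, and 1 further gene of the pathway is not reported here and was left out of the list counts. Since all 9 members passed the filter, no permutation test was needed. On simulated counts with the real means and dispersions, of 100 genes changed 4-fold among 18850, 64 were recovered for AD-HFD against Sham, 61 for AD against Sham and 64 for AD-HFD against AD, and of 100 changed 2-fold, 11, 13 and 11. No replicate pair agreed within sampling noise (lowest chi-square over degrees of freedom 17.4). Alternatives were DESeq2 1.42.0, voom in limma 3.58.1, other scalings, filters and thresholds, a replicate block, a fit on only the groups compared, and omitting each library in turn. Added after seeing the data were the legacy method and 3 fits that left out several libraries.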

Additional observations from a re-analysis of the deposited data

Results flagged for a closer look

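In groups of 4 libraries, a library was singled out where its gap to the nearest other exceeded Dixon's 95% critical share of the group's range. Chance alone singles out about 1 in 20 groups, and 15 of 132 groups over 44 named genes were. AD-3 stood above the other AD libraries for Lif (38.7 CPM, next 3.27), Il6r (44.4 CPM, next 9.72), Jak2 (147 CPM, next 48.2), Il11 (48.6 CPM, next 4.43), Clcf1 (39.8 CPM, next 1.71), Timp1 (418 CPM, next 35.01) and Socs1 (4.03 CPM, next 1.45). AD-HFD-4 stood above the other AD-HFD libraries for Il11 (188 CPM, next 36.8) and Socs1 (7.38 CPM, next 3.67). AD-HFD-3 did so for Lifr (37.0 CPM, next 25.9) and stood below the others for Ctf1 (1.13 CPM, next 3.94). In Sham, Sham-1 was highest for Il6 (0.175 CPM, the others 0) and Osmr (1.78 CPM, next 1.11) and lowest for Jak3 (2.60 CPM, next 4.31), and Sham-4 was highest for Cebpb (14.9 CPM, next 6.17).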

How the results depend on the processing

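The count of members called in AD-HFD against Sham was 9 and stayed between 7 and 9 when any 1 library was left out; it was 0 only without Sham-2, Sham-3, AD-HFD-1 and AD-HFD-2 together, where 0 of all genes were called. The count of 4 in AD against Sham was 6 with DESeq2, 0 with limma voom, at an adjusted p under 0.01 and without those 4 libraries, 8 with AD-3 as the lone AD library, which is then assumed to vary like the other groups, and 1 to 6 without any 1 library. It was 2 with the replicate number as a block, which changed no member count in the other comparisons. None of 12 same-numbered pairs had deviations correlated above 0.1 (-0.317 to 0.0947). No pairing by number was thus seen, but this check cannot exclude one, because the marker differences between libraries enter the deviations. Without AD-3 the count of 4 comprised 3 rises and the fall of Il6r. The count of 0 in AD-HFD against AD was 2 with DESeq2, 9 with both AD-3 and AD-HFD-3 left out (45.1% of all genes), and 0 to 9 without any 1 library. Scaling by RLE or upper quartile changed no member count.

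In AD against Sham, Il6r turned to -0.14 with voom, -0.065 with the replicate block, -0.75 without AD-3 (up to 0.54 on omitting another library) and -0.77 with AD-HFD-3 left out as well; Jak2 turned to -0.14 and -0.16 in the last pair of fits (up to 0.76 on omitting another library). With AD-3 as the lone AD library, AD-HFD against AD was -0.38 for Lif, -0.25 for Il6r, -0.12 for Stat3, -0.039 for Socs3 and -0.51 for Jak2. The cause of these changes was not tested. All genes called in AD against Sham were 1174, and 2602 with DESeq2, 198 at an adjusted p under 0.01, 2363 on the compared groups alone and 302 to 2329 without any 1 library. In AD-HFD against AD the count of 2 was 3311 with DESeq2, 5841 on omitting AD-3 and 5321 on omitting AD-HFD-3. In AD-HFD against Sham it was 6162, and 2174 at 0.01 and 3514 to 8615 without any 1 library. Of the other pathway genes, AD called 16 with DESeq2, 1 with voom, 3 with the block, 1 at 0.01 and 16 on the compared groups alone, against 9.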
